A study of Mus musculus with 8 samples.

Results

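Transcripts of 9 genes that make, bind and break down retinoic acid were followed in the caput epididymis, the first segment of the duct through which sperm pass to mature. The 9 genes are Stra6, Rdh10, Dhrs3, Aldh1a1, Aldh1a2, Aldh1a3, Crabp1, Crabp2 and Cyp26b1. They were taken from the deposited table by an exact match of the gene symbol, and all 9 were among its 24059 symbols. The libraries came from C57BL/6N mice at 14 weeks of age, 4 from wild-type animals (WT) and 4 from Nell2-/- animals (Nell2-KO). Nell2 encodes a secreted protein made by germ cells of the testis that reaches the epididymis through the lumen. The labels give neither the Nell2 allele nor the mouse behind each replicate, and the spread behind each p-value is that between these samples, which may be technical.

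Retinoic acid is made from retinol, the circulating form of vitamin A, in 2 oxidation steps. Retinol enters cells from its plasma carrier through the membrane receptor STRA6, is oxidised to retinal by RDH10, and is returned to retinol by the reductase DHRS3. Retinal is then oxidised irreversibly to retinoic acid by the retinal dehydrogenases ALDH1A1, ALDH1A2 and ALDH1A3. CRABP1 and CRABP2 bind retinoic acid in the cytoplasm, and CYP26B1 breaks it down. The epididymal epithelium depends on vitamin A, and its lumen holds a retinoic acid-binding lipocalin, the product of Lcn5.

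Gene counts summed to between 2073811 and 2517387 per WT library and to between 801112 and 6256204 per Nell2-KO library. Nell2 had 0 reads in all 8 libraries, so that it did not check the genotype labels. Nell2-KO replicate 1 had the lowest total and stood apart: relative to the WT mean, 0.496 of the usual share of reads fell in genes there, while the other 3 Nell2-KO libraries were at 1.02 to 1.03. In that library 3 reads correspond to 4.26 CPM (the count scaled to a common library total), so low genes rest there on a handful of reads. By the measure of the share of reads in genes, WT replicate 2 was at 0.900. The read totals behind these shares were not observed but inferred from the deposited counts and RPKM. Levels below are CPM scaled by the TMM method, and fold changes are edgeR's fitted values. Of the 11062 genes that passed edgeR's filter on low counts, 15.0% were called at an adjusted p under 0.05, 6.24% as higher and 8.71% as lower in Nell2-KO. Higher genes made up 41.7% of the calls, and 11.5% of those that limma gave on the deposited RPKM. The whole caput was sequenced, so fewer cells of a type and less RNA per cell cannot be told apart.

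Of the 9 genes, 7 passed the filter and Crabp1 and Crabp2 did not. Stra6 rose in Nell2-KO, and 0 of the 7 were called lower. At an unadjusted p under 0.05 edgeR gave 2 of the 7 as higher and 1 as lower, and DESeq2 and limma-voom also called 1 higher and 0 lower. The share of all genes at that unadjusted threshold was not counted, so unadjusted counts, here and below, are a description only. The median log2 fold change of the 7 was -0.18, against 0.03 over all genes tested. The counts changed without Nell2-KO replicate 1, where edgeR called Stra6 and Aldh1a3 higher and Aldh1a1 lower, against backgrounds of 11.5% higher and 13.2% lower calls.

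**Figure D1:**
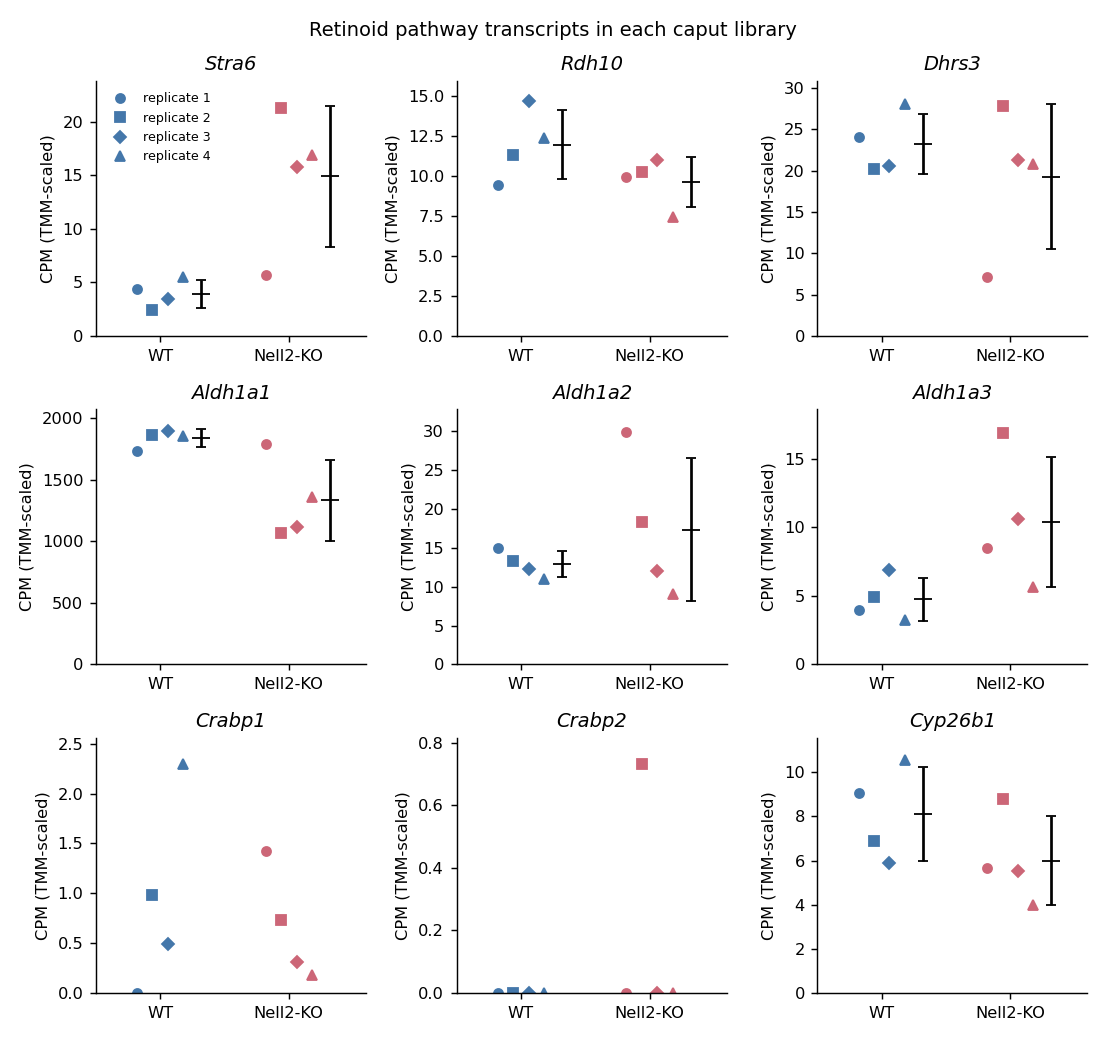
TMM-scaled CPM of the 9 genes in each library, with 1 symbol per replicate; the black bar is the mean and SD of 4 libraries, left out for Crabp1 and Crabp2, which have few reads. The 4 Nell2-KO values of Stra6 lie above the 4 WT values, the lowest of them, in replicate 1, only just so at 5.68 against 5.52 CPM.

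Stra6, the receptor for retinol uptake, was at 4.34, 2.47, 3.43 and 5.52 CPM in WT replicates 1 to 4. In Nell2-KO replicates 1 to 4 it was at 5.68, 21.3, 15.8 and 16.9 CPM. The groups did not overlap, but Nell2-KO replicate 1 lay close to the highest WT library. Of the 7 genes, 1 had Nell2-KO libraries all higher and 0 all lower, as held for 9.51% and 12.6% of all genes tested (22.1% in either direction). The mean went from 3.94 ± 1.30 CPM to 14.9 ± 6.59 CPM (SD, n = 4 per group), a 3.98-fold rise. On the log2 scale the rise was 1.99 ± 0.33 (SE), with a 95% interval of 1.27 to 2.71 (edgeR adjusted p = 0.00136). These levels rest on 35 reads in WT and 229 in Nell2-KO, 4 of them in Nell2-KO replicate 1. Without that library the rise was 4.35-fold (edgeR adjusted p = 9.23e-06), and the other 3 Nell2-KO libraries averaged 18 ± 2.89 CPM (SD, n = 3). On the deposited RPKM, limma gave Stra6 a log2 fold change of 1.18, where the median over all genes was -0.19, and did not call it (limma adjusted p = 0.263).

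In mm10, Stra6 (ENSMUSG00000032327.14) lies on chromosome 9 at 58063788 to 58153996 on the plus strand, in GENCODE M21. The gene span overlaps Ccdc33 on the opposite strand and Gm16131, not analysed here, on the same strand, and no source used here gives the strand setting of the authors' counting. Ccdc33 had 5 reads over the WT libraries and 11 over the Nell2-KO libraries. How reads in the overlap were credited is unknown here, and their part in the Stra6 counts was not tested. None of the 36-base stretches of the Stra6 transcripts occurs in the same direction in a transcript of another gene. Reverse complements were not searched, so the overlap with the opposite strand was not covered.

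**Figure D2:**
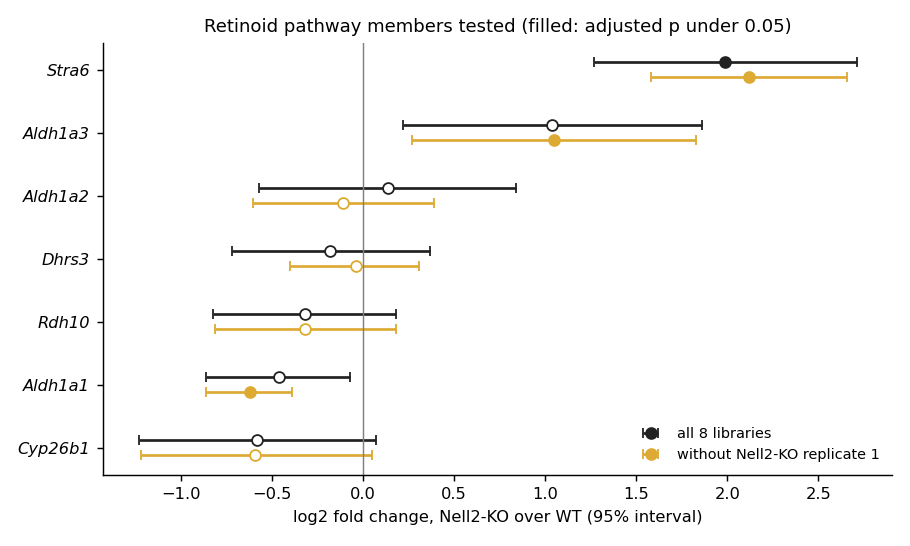
Log2 fold change of the 7 tested genes between Nell2-KO and WT, with 95% intervals, from all 8 libraries (black) and without Nell2-KO replicate 1 (yellow); filled points passed an adjusted p of 0.05. Stra6 passed in both fits, while Aldh1a3 (1.05) and Aldh1a1 (-0.62) passed only without that library.

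Neither enzyme that interconverts retinol and retinal was called. Rdh10 (chromosome 1, 16105774 to 16133734, plus strand) encodes the enzyme that oxidises retinol. It was at 9.47, 11.4, 14.7 and 12.4 CPM in WT replicates 1 to 4 and at 9.93, 10.3, 11.1 and 7.43 CPM in Nell2-KO replicates 1 to 4. The groups overlapped, with a log2 fold change of -0.32 and a 95% interval of -0.82 to 0.18 (edgeR adjusted p = 0.42). Dhrs3 (chromosome 4, 144892827 to 144928209, plus strand) encodes the reductase of the reverse step. It was at 24.1, 20.2, 20.6 and 28.0 CPM in WT libraries and at 7.10, 27.9, 21.3 and 20.8 CPM in Nell2-KO. Nell2-KO replicate 1 was the low library, with 5 reads. The log2 fold change of Dhrs3 was -0.18 with a 95% interval of -0.72 to 0.37 (edgeR adjusted p = 0.716), and without that library it was -0.04.

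Among the retinal dehydrogenases, Aldh1a1 was by far the most abundant. It stood at 1735, 1866, 1896 and 1858 CPM in WT replicates 1 to 4. In Nell2-KO replicates 1 to 4 it was at 1791, 1070, 1116 and 1362 CPM. Nell2-KO replicate 1 lay within the WT range, and the other 3 lay below every WT library. With all 8 libraries the log2 fold change was -0.46 ± 0.18 (SE) with a 95% interval of -0.86 to -0.07, and Aldh1a1 was not called (edgeR adjusted p = 0.115). Without Nell2-KO replicate 1 it fell 1.54-fold, to 1180 ± 157 CPM (SD, n = 3; edgeR adjusted p = 0.000501). With library totals in place of TMM scaling, all 8 libraries gave -0.48 (edgeR adjusted p = 0.0497).

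Aldh1a7, the neighbouring paralog of Aldh1a1 on chromosome 19, is the gene that shares 36-base stretches of transcript with Aldh1a1. Aldh1a1 lies at 20492715 to 20643465 on the plus strand and Aldh1a7 at 20692953 to 20727562 on the minus strand (mm10, GENCODE M21). Their coding sequences have 1503 bases each and are identical at 91.6% of positions. The opening 90 bases of both coding sequences are shown because they carry the differences by which a 36-base read can be assigned. Capitals mark the 5 bases that differ.
Aldh1a1: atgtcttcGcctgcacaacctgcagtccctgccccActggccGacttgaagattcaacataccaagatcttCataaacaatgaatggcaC
Aldh1a7: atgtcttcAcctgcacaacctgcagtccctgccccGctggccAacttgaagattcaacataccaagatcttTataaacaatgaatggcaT
The longest run without a difference has 100 bases, from coding position 757 to 856, and 90 bases of it are shown as an example of sequence that cannot be assigned.
Both genes, 762 to 851: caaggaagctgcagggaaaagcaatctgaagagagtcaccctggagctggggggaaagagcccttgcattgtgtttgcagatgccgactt
Of the 36-base stretches of the Aldh1a1 transcripts 4.70% also occur in Aldh1a7, and of those of Aldh1a7 11.4% also occur in Aldh1a1. The same 232 stretches make up both shares, and that of Aldh1a1 is taken over transcripts of 4937 bases together. The deposited counts and RPKM imply counted lengths of 2035 bases for Aldh1a1 and 2063 for Aldh1a7, so the share of Aldh1a1 among counted bases can be higher. How the authors counted such reads is unknown here, so the split between both genes is uncertain to an extent not measured here.

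Aldh1a7 fell, and it did so in every Nell2-KO library. It was at 595, 624, 629 and 632 CPM in WT replicates 1 to 4 and at 322, 221, 270 and 341 CPM in Nell2-KO replicates 1 to 4. The groups did not overlap. The mean went from 620 ± 16.8 to 288 ± 54.0 CPM (SD, n = 4 per group), a 2.15-fold fall of 1.10 ± 0.16 on the log2 scale (SE; edgeR adjusted p = 0.000411). The ratio of Aldh1a1 to Aldh1a7 counts, which needs no scaling between libraries, was chosen after the values were seen. It was 2.91, 2.99, 3.01 and 2.94 in WT and 5.56, 4.83, 4.14 and 4.0 in Nell2-KO. All 4 Nell2-KO ratios were above the WT ratios (two-sided exact permutation test of the log2 ratio, p = 0.0286, the smallest that 4 against 4 libraries can give). The difference of 0.63 on the log2 scale ranged from 0.54 to 0.70 when any library was left out.

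**Figure D3:**
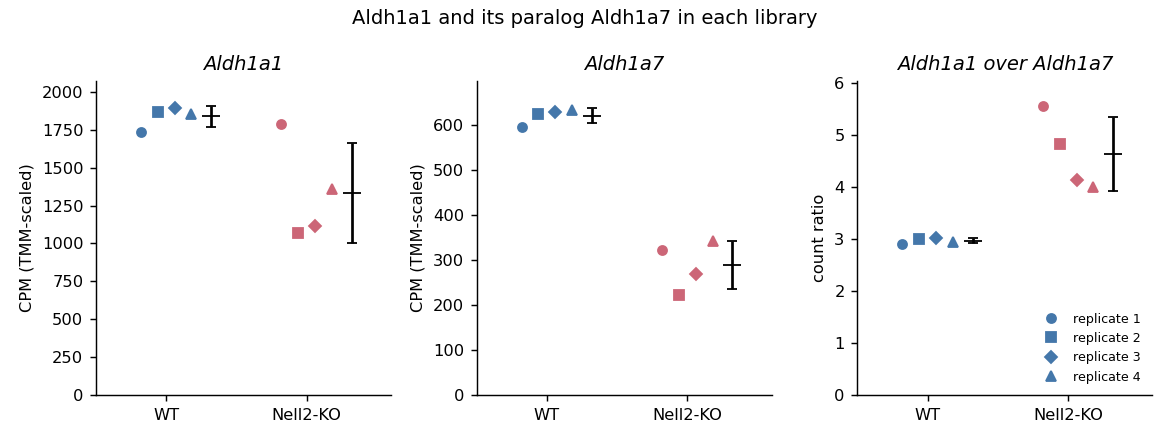
TMM-scaled CPM of Aldh1a1 and Aldh1a7 and the ratio of their counts in each library, with 1 symbol per replicate; black bars are the mean and SD of 4 libraries. Aldh1a7 is lower in all 4 Nell2-KO libraries, whereas Aldh1a1 of Nell2-KO replicate 1 (1791 CPM) lies within the WT range, and the ratio goes from a mean of 2.97 to 4.63.

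The other two retinal dehydrogenases were scarce. They lie on chromosome 9 at 71215789 to 71296243 on the plus strand (Aldh1a2) and on chromosome 7 at 66390890 to 66427517 on the minus strand (Aldh1a3). Aldh1a2 was at 15.0, 13.3, 12.3 and 11 CPM in WT libraries and at 29.8, 18.3, 12 and 9.06 CPM in Nell2-KO, with overlap. Its log2 fold change was 0.14 (95% interval -0.57 to 0.84, edgeR adjusted p = 0.838) and turned to -0.11 without Nell2-KO replicate 1, the library with its highest level. Aldh1a3 was at 3.95, 4.93, 6.86 and 3.22 CPM in WT libraries and at 8.52, 16.9, 10.6 and 5.62 CPM in Nell2-KO. Nell2-KO replicate 4 fell between WT libraries, and the other 3 lay above them. The log2 fold change of Aldh1a3 was 1.04 ± 0.38 (SE) with a 95% interval of 0.22 to 1.86, and it was not called (edgeR adjusted p = 0.0912). It was called without Nell2-KO replicate 1 (edgeR adjusted p = 0.047) or when Nell2-KO replicate 4 was left out (edgeR adjusted p = 0.0227), and its adjusted p reached 0.219 among the fits that left out a single library. The gene rests on 41 reads in WT and 129 in Nell2-KO. Of the 4601 36-base stretches of its transcripts, 82 (1.78%) also occur in transcripts of other genes, and their part in its counts was not measured.

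Transcripts of the retinoic acid-binding proteins, from Crabp1 (chromosome 9, 54764748 to 54773110, plus strand) and Crabp2 (chromosome 3, 87948666 to 87953376, plus strand), were at or near the limit of detection. Crabp1 had 0, 2, 1 and 5 reads in WT replicates 1 to 4 and 1, 1, 2 and 1 reads in Nell2-KO replicates 1 to 4. Crabp2 had 0 reads in WT and 1 read in Nell2-KO, in replicate 2. A count of 0 over the pooled WT libraries allows up to 3 reads, or 0.342 CPM, counting error only. A difference between genotypes was not detectable for either gene at this depth.

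Cyp26b1 (chromosome 6, 84571414 to 84593908, minus strand) encodes an enzyme that breaks retinoic acid down. It was at 9.08, 6.91, 5.88 and 10.6 CPM in WT libraries and at 5.68, 8.80, 5.53 and 3.99 CPM in Nell2-KO. The groups overlapped, with a log2 fold change of -0.58 and a 95% interval of -1.23 to 0.07 (edgeR adjusted p = 0.242). Its relatives with the same function were nearly undetected. Cyp26a1 had 1 read in each group and Cyp26c1 had 0 reads in all libraries.

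Levels were compared between genes as TMM-scaled CPM per kilobase, with the length implied by the deposited counts and RPKM. In WT the order was Aldh1a1 (904 ± 34.9), Dhrs3 (12.9 ± 2.03), Aldh1a2 (5.69 ± 0.743), Rdh10 (5.21 ± 0.949), Cyp26b1 (1.67 ± 0.436), Aldh1a3 (1.39 ± 0.463), Crabp1 (1.17 ± 1.23) and Stra6 (1.08 ± 0.357 CPM per kilobase, SD, n = 4), with Crabp2 at 0. Aldh1a2 and Rdh10 lay within each other's spread in this order, as did Cyp26b1 and Aldh1a3. The low read counts of Crabp1 gave it a spread that covered Cyp26b1, Aldh1a3 and Stra6. The libraries of Stra6 (0.676 to 1.51) overlapped those of Aldh1a3 (0.945 to 2.01) and of Cyp26b1 (1.21 to 2.18 CPM per kilobase), but its mean lay below the lowest Cyp26b1 library. In Nell2-KO Stra6 stood at 4.09 ± 1.81 CPM per kilobase and was the 5th of the 9 rather than the 8th. There its spread covered Rdh10 (4.21 ± 0.680) and Aldh1a3 (3.05 ± 1.40), while Aldh1a1 (656 ± 162) and Dhrs3 (10.7 ± 4.85 CPM per kilobase) kept the top places by mean. The Nell2-KO libraries of Aldh1a2 (4.0 to 13.1) overlapped those of Stra6 (1.56 to 5.83) and of Dhrs3 (3.94 to 15.5 CPM per kilobase). The places below Aldh1a1 are thus not settled. Aldh1a7 was at 300 ± 8.18 CPM per kilobase in WT and 140 ± 26.2 in Nell2-KO.

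The remaining retinoid genes comprised 58 listed symbols, of which 55 were in the table and 26 were tested. Of these, 2 rose and 3 fell, beside backgrounds of 6.24% higher and 8.71% lower calls, and their median log2 fold change was -0.02. Without Nell2-KO replicate 1, 3 of the 26 were called higher and 5 lower, beside 11.5% and 13.2% of all genes. Both counts lie near the background. The 5 called genes with all libraries were Aldh1a7, described above, and Fabp5, Lcn5, Rarres1 and Tgm2. On the deposited RPKM, limma called Aldh1a7 (limma adjusted p = 0.0247) and Fabp5 (limma adjusted p = 0.000134) and not the other 3.

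Of 7 carriers and genes of uptake and storage tested, Lcn5 rose and Fabp5 fell. Fabp5 encodes a fatty acid-binding protein that can also carry retinoic acid. It had 18, 23, 22 and 15 reads in WT and 0, 1, 2 and 4 reads in Nell2-KO, and fell 16.6-fold (edgeR adjusted p = 2.99e-05). Processed copies and the related gene Fabp5l2 share 300 of the 3597 36-base stretches (8.34%) of its annotated transcripts. The deposited counts and RPKM imply a counted length of only 954 bases, so the share among counted bases can be larger. The counts of Fabp5 are thus uncertain to an extent not measured here. Lcn5, the retinoic acid-binding lipocalin of the lumen, was at 1582, 228, 1745 and 1789 CPM in WT libraries and at 4327, 3485, 4456 and 7460 CPM in Nell2-KO. The groups did not overlap, and WT replicate 2 was low. That library was also the lowest for Rarres1 and Stra6, and its Malat1, a nuclear noncoding RNA, stood at 7215 CPM. The remaining WT libraries held 993 to 1138 CPM of it and the Nell2-KO libraries 938 to 1890 CPM. Without WT replicate 2, Lcn5 rose by 1.53 on the log2 scale (edgeR adjusted p = 0.00382). Lcn5 rose by 1.88 ± 0.50 on the log2 scale (SE, edgeR adjusted p = 0.0258). That call ended when 1 of 4 libraries was left out, WT replicates 1 and 3 and Nell2-KO replicates 1 and 4, where the edgeR adjusted p reached 0.129, and with no filter on low counts (edgeR adjusted p = 0.163). Lrat, which encodes the enzyme that esterifies retinol for storage, was at 11.2 ± 2.69 CPM in the WT group and 6.39 ± 3.77 CPM in Nell2-KO (edgeR adjusted p = 0.0782).

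**Figure D4:**
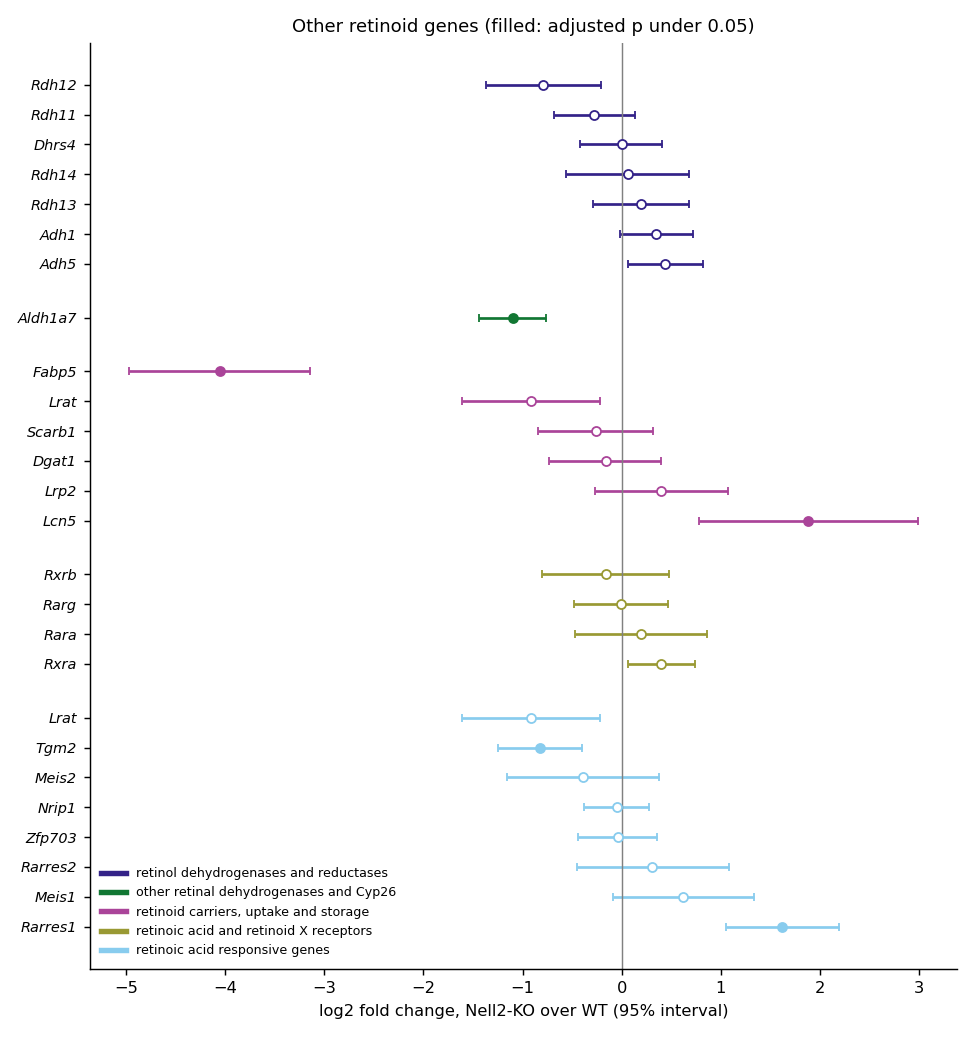
Log2 fold change between Nell2-KO and WT of the other retinoid genes tested and reported, with 95% intervals, coloured by list; filled points passed an adjusted p of 0.05, and Lrat belongs to 2 lists. Fabp5 (-4.05), Aldh1a7 (-1.10) and Tgm2 (-0.82) lie lower and Lcn5 (1.88) and Rarres1 (1.62) higher in Nell2-KO.

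Of 7 further retinol dehydrogenases and reductases tested, edgeR called 0, with 1 higher and 1 lower at an unadjusted p under 0.05. DESeq2 called 0 of 11 and limma-voom 0 of 7. The summed level of all 18 listed was 298 to 330 CPM over the WT libraries, below the 363 to 386 CPM of Nell2-KO. How often such sums differ for other sets of genes was not counted. The most abundant of the 18 by CPM was Adh5, an alcohol dehydrogenase gene, at 135 ± 22.9 CPM in the WT group and 181 ± 33.7 CPM in Nell2-KO (edgeR adjusted p = 0.127). Adh1, of the same kind, went from a mean of 58.5 to 76 CPM. Rdh11 (37.1 to 28.9 CPM) and Rdh12 (11.7 to 7.17 CPM) went the other way, and Rdh13, Rdh14 and Dhrs4 had log2 fold changes of 0 to 0.2.

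The nuclear receptors through which retinoic acid acts were Rara, Rarg, Rxra and Rxrb among the tested genes, and edgeR called 0 of the 4. At an unadjusted p under 0.05 edgeR gave 1 as higher, and DESeq2 called 0 of 5 and limma-voom 0 of 4. Rxra, the partner receptor, was at 37.9 ± 6.14 CPM in the WT group and 49.4 ± 4.42 CPM in Nell2-KO (edgeR adjusted p = 0.119).

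Of 9 genes tested that are known to respond to retinoic acid in other cells, Rarres1 rose and Tgm2 fell. Rarres1, named for its response to retinoids, was at 22.5, 8.88, 25.0 and 23.4 CPM in WT libraries and at 55.4, 72.6, 68.9 and 49.5 CPM in Nell2-KO. Every Nell2-KO library was above every WT library, a 3.07-fold rise (edgeR adjusted p = 0.00116). Tgm2, which encodes tissue transglutaminase, was at 119, 101, 98.0 and 94.2 CPM in WT libraries and at 32.6, 71.1, 60.7 and 62.2 CPM in Nell2-KO. Its groups did not overlap either, and it fell 1.77-fold (edgeR adjusted p = 0.0125). The call of Tgm2 ended without WT replicate 1 (edgeR adjusted p = 0.0582). The other 7 responsive genes did not pass, and the median log2 fold change of the 9 was -0.05.

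Across the 8 libraries, the 3 genes whose log2 CPM followed Stra6 most closely were Tns3 (Pearson r = 0.982), Gstm1 (r = 0.978) and Dhrs7 (r = 0.974), among 5379 genes of at least median level. The 8 points share the 2 genotypes and the differences in depth, so r is a description only. Tns3, which encodes a tensin of focal adhesions, went from 60.9 ± 4.74 to 113 ± 21.4 CPM. Gstm1, a glutathione transferase gene, went from 120 ± 8.62 to 219 ± 66.7 CPM, and Dhrs7, a gene of the same enzyme superfamily as Dhrs3 and Rdh10, from 36.9 ± 9.38 to 77.9 ± 21.8 CPM. Since Stra6 differed by genotype, a higher level of these 3 in Nell2-KO follows from how they were chosen.

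Some of the listed cell type markers also differed with genotype, beside 6.24% higher and 8.71% lower calls among all genes tested. Without Nell2-KO replicate 1 these background shares were 11.5% and 13.2%. Of 4 clear cell markers tested, Foxi1 and Atp6v1g3 rose, and the summed level of the 5 listed genes was 319 to 395 CPM in the WT group and 350 to 615 CPM in Nell2-KO, with Slc4a9 at 1 read in all. The upper end came from Nell2-KO replicate 1, where Atp6v0d2 was at 400 CPM. Without that library 3 clear cell markers were called higher, and Atp6v0d2 was called lower (log2 fold change -0.46, edgeR adjusted p = 0.0132). Only 1 was called higher when WT replicate 1, 3 or 4 or Nell2-KO replicate 2 was left out singly. On the deposited RPKM, limma called 0 of the 4 clear cell markers. Of 5 basal cell markers, Krt15, Trp63 and Itga6 fell, with a sum of 336 to 384 CPM in the WT group and 160 to 281 CPM in Nell2-KO. The other 2, the basal keratin genes Krt5 (log2 fold change 0.30) and Krt14 (-0.04), did not pass, and limma called 0 of the 5 on the deposited RPKM, with 3 lower at an unadjusted p under 0.05. With any of WT replicates 1 to 4 or Nell2-KO replicate 2 or 3 left out singly, edgeR called only 2 basal cell markers lower. Of 5 endothelial markers, Pecam1, Kdr and Emcn fell (86.4 to 120 CPM in WT, 41.3 to 66.7 CPM in Nell2-KO). Of 6 fibroblast markers, Dcn rose (mean of 277 CPM in WT, 405 CPM in Nell2-KO) and Pdgfra fell (521 and 122 CPM). Their sum of 1019 to 1088 CPM in WT and 671 to 1015 CPM in Nell2-KO was lowered by Pdgfra, and the other 4 did not pass. The call of Dcn (edgeR adjusted p = 0.0416) ended when any of WT replicates 1 to 4 or Nell2-KO replicate 2 or 3 was left out singly. On the deposited RPKM, limma called 0 fibroblast markers higher. Of 5 macrophage markers (93.6 to 111 CPM in WT, 48.3 to 94.0 CPM in Nell2-KO), edgeR, DESeq2 and limma-voom called 0, and edgeR gave 1 as lower at an unadjusted p under 0.05. All 3 tools also called 0 of the smooth muscle markers (597 to 701 CPM in WT, 630 to 813 CPM in Nell2-KO) and 0 of the testis and sperm markers (30.3 to 60.8 CPM in WT, 35.8 to 100 CPM in Nell2-KO), with 0 at an unadjusted p under 0.05 as well. Of 8 caput epididymis markers 3 rose and 4 fell, and their sum was 107300 to 116700 CPM in the WT group and 99510 to 123500 CPM in Nell2-KO. Gpx5, an epididymal glutathione peroxidase gene, led them at 70000 ± 4790 CPM (WT) and 84200 ± 12100 CPM (Nell2-KO), and Lcn5 belongs to this list too. The part of these shifts in the changes of Stra6, Aldh1a7, Fabp5, Lcn5, Rarres1 and Tgm2 was not tested.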

How the data were processed

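RNA from caput epididymis was extracted on columns and amplified before stranded mRNA libraries were made and read as single 36-base reads, per the labels' protocols. Raw counts and RPKM for each gene symbol were deposited by the authors, per the file headers. CASAVA 1.8.2, FastQC 0.11.2, Bowtie2 2.2.0 and mm10 are named in the submitters' processing notes. The counting tool and its handling of reads that fit several genes were not given in the sources used here. Replicates were matched to the table's columns by title.

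Counts were tested with edgeR 4.0.16 (R 4.3.3; TMM, filterByExpr, robust quasi-likelihood F test of genotype, no covariate), with Benjamini-Hochberg adjustment over all genes tested and calls at 0.05. Standard errors and 95% intervals of log2 fold changes came from the F statistic. On simulated data of 10842 genes the fit recovered 62 of 100 genes changed 2-fold and 98 of 100 changed 4-fold, with 13 false calls. The changed genes were drawn only from those above a minimum mean CPM, so recovery among the lowest genes was not measured. Alternatives were other scalings and filters, DESeq2 1.42.0, limma 3.58.1 with voom or on log2 deposited RPKM with a pseudocount of 0.5 or 0.1, a replicate block, and left-out libraries. Limits on counts of 0 cover counting error only, since the RNA was amplified and reads carry no molecular identifiers. The 95% intervals also hold the spread between libraries that the fit estimated.

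Shared 36-base stretches were exact matches in the same direction among GENCODE M21 transcripts, and reverse complements were not searched. Gene lengths were implied by counts and RPKM, scaled on 320 genes with a single transcript, of which 45.3% came within 1% of the annotated length. The members, lists and tests were chosen with earlier results of these data known. All 9 members were named, then up to 4 called genes of each other retinoid list, and the 3 genes most like each called member. Ccdc33, Lrat, Adh5, Rxra, Rdh12, Hoxb1 and the ratio of Aldh1a1 to Aldh1a7 were chosen after their values were seen. A gene among the other retinoid genes counted is not reported here by itself.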

Additional observations from a re-analysis of the deposited data

How the results depend on the processing

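The rise of Stra6 was called by edgeR with every other scaling and filter tried, by DESeq2, by limma-voom and without any single library (log2 fold change 1.84 to 2.19, edgeR adjusted p of up to 0.00897), but not by limma on the deposited RPKM. Limma on RPKM called 65 genes higher and 500 lower with a pseudocount of 0.5, and 53 and 460 with 0.1 (690 and 964 from the counts), that is 11.5% and 10.3% of calls higher against 41.7%. Its median over all genes was -0.19 and -0.22, and it called 0 members and 0 other retinoid genes higher. Library totals called 1 member lower, and no filter called 1 other retinoid gene higher. Leaving out a single library gave 443 to 1301 genes higher and 748 to 1485 lower, 1 to 2 members higher and 0 to 1 lower, and 1 to 3 other retinoid genes higher and 2 to 5 lower. Without Nell2-KO replicate 1 and WT replicate 2 together, 1391 genes were called higher and 1694 lower, 1 member higher and 1 lower, and 5 other retinoid genes higher. The cause of these differences was not tested. Aldh1a2 turned to -0.04 with limma-voom and to -0.12 without both libraries (-0.11 to 0.42 without a single library).

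Replicate numbers did not pair the samples: deviations of same-numbered libraries correlated at -0.278, -0.166, 0.171 and 0.164. With the replicate number as a block, 436 genes were called higher and 748 lower. Stra6 kept its call (1.90, edgeR adjusted p = 0.0127) and Tgm2 lost it (-0.85, edgeR adjusted p = 0.0502). Depth limits the low genes most: 3 reads were 4.26 CPM in Nell2-KO replicate 1 and 0.461 CPM in Nell2-KO replicate 3.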

Other observations

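Hoxb1, a homeobox gene that responds to retinoic acid in the embryo, did not pass the expression filter. It had 38 reads over the WT libraries, 6 to 14 in each, and 4 over the Nell2-KO libraries, 0 to 3 in each. With no filter its log2 fold change was -3.75 ± 0.60 (SE, edgeR adjusted p = 0.000198), and DESeq2 gave -3.90 ± 0.87 (SE, DESeq2 adjusted p = 0.00015).

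Calls of 4 other retinoid genes appeared without Nell2-KO replicate 1. Adh5 was then higher by 0.57 ± 0.12 (edgeR adjusted p = 0.00275) and Rxra higher by 0.44 ± 0.14 (edgeR adjusted p = 0.0303), on the log2 scale with SE. Rdh12, a retinol dehydrogenase gene, was at -0.82 ± 0.26 (edgeR adjusted p = 0.0316) and Lrat at -1.01 ± 0.28 (edgeR adjusted p = 0.0146). With all 8 libraries the edgeR adjusted p of these 4 ran from 0.0713 (Rdh12) to 0.127 (Adh5).

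RefSeq promoter windows on GRCm38.p6, from 250 bases before to 50 after a start, were given for 6 of the 9 members, and Stra6 had 4 of the 12 windows. The letters AGGTCA are a common core of retinoic acid response elements. They occurred on neither strand in any of the 12 windows, against 16.3% of 32851 windows of all genes. The 12 windows come from 6 genes, and some windows of Dhrs3 and of Stra6 overlap. They are too few to read the absence as a depletion. The variant AGTTCA was not counted by itself and occurs, for example, in the Stra6 window from 58133825 to 58134124. A window without AGGTCA says nothing of binding through other letters or elsewhere.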
